A study of Ovis aries with 56 samples.

Results

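RNA of the right amygdala was compared with RNA of the left amygdala in rams treated with an agonist of gonadotropin-releasing hormone (GnRH). The comparison rested on 12 arrays, 6 of the left side and 6 of the right side, out of the 14 arrays of treated rams and the 56 arrays of the series. They came from 7 rams, of which 5 gave both sides. Arrays were chosen by their spike-ins, RNAs added in known proportions to both dyes. An array was kept when the slope of its spike-in ratios on the median of the other arrays was at least 0.5 in size, and its ratios were multiplied by -1 when that slope was negative.

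The animals were sheep of a Scottish Mule and Texel cross, sampled at 50 weeks of age, in same-sex twin pairs of which 1 twin was treated and the other was an untreated control. Treated rams had received implants of the agonist goserelin acetate under the skin, 3.6 mg each and renewed at intervals of 4 weeks, with the first at the age of 8 weeks; treated ewes had their first at 28 weeks. The 8 groups combined sex, treatment and side, with 7 arrays each. On every array 1 amygdala sample in 1 dye was hybridised with pooled amygdala RNA of both sexes and sides in the other dye, so each value is a log2 ratio of a sample to the pool.

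The amygdala is a paired group of nuclei in the temporal lobe that processes fear, social and sexual signals, and it holds cells with receptors for sex steroids and GnRH. GnRH agonists given continuously desensitise the pituitary, which stops gonadotropin release and puts the gonads to rest. A difference between the sides of the amygdala is called lateralisation, and it has been described in mammals for emotional processing. In bulk RNA, fewer cells of a type and less RNA per cell cannot be told apart.

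The rams are lettered A to H. Ram A had a right sample and ram C a left sample, and rams B, D, F, G and H had both sides. Both arrays of ram E were left out, with spike-in slopes of -0.09 and -0.11 and with 27.4% and 28.9% of probes without a value. Both arrays of ram G were turned, with slopes of -1.03 each, and the fit used the dye that their labels give for the pool. The other 10 arrays of treated rams had slopes of 1.01 to 1.09. The label on the tissue could be checked only in part, because none of the fixed lists of neuronal, oligodendrocyte and GABA genes had a named probe that was tested.

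With the dye that the fit used for ram G, the dyes were not spread evenly over the sides. The left sample then carried Cy3 in 4 rams (D, F, G and H) and Cy5 in 2 (B and C). The right sample carried Cy3 in 2 (A and B) and Cy5 in 4 (D, F, G and H). The labels give ram G Cy5 on the left and Cy3 on the right, and whether they were swapped was not tested. All dyes named below are those used in the fit. Within every ram with both sides the sides carried opposite dyes. The dye was therefore a term of the fit, and what parted side from dye was mainly the arrays of rams A, B and C. Dye itself was called for 948 of 12472 probes (7.6%), at an adjusted p under 0.05 in limma. Before any adjustment for dye, the right minus left differences of rams D, F, G and H correlated across probes with r of 0.27 to 0.46, and those of ram B correlated with them with r of -0.39 to -0.11. Probes are not independent replicates, and these correlations describe the arrays.

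No probe passed the test of right against left amygdala in treated rams. Of 12472 probes tested with limma, 0 (0%) had a Benjamini-Hochberg adjusted p under 0.05, and the lowest adjusted p was 0.106. At an unadjusted p under 0.05 there were 1436 probes (11.5%), 704 higher (5.64%) and 732 lower (5.87%) on the right, where 623.6 were expected by chance. With animal as a fixed replicate block over all kept arrays, 768 of 12154 probes were under that threshold, so the number depended on the model. The median difference over all probes was -0.0068 on the log2 scale, and 49.2% of the probes were higher on the right. The dye-adjusted values of the sides did not overlap for 199 probes (1.6%). With the probes cut into 10 bins by brightness, the median standard error was 0.60 in the dimmest bin and 0.13 in the brightest, so the precision was set by brightness as well as by the number of arrays.

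**Figure D1:**
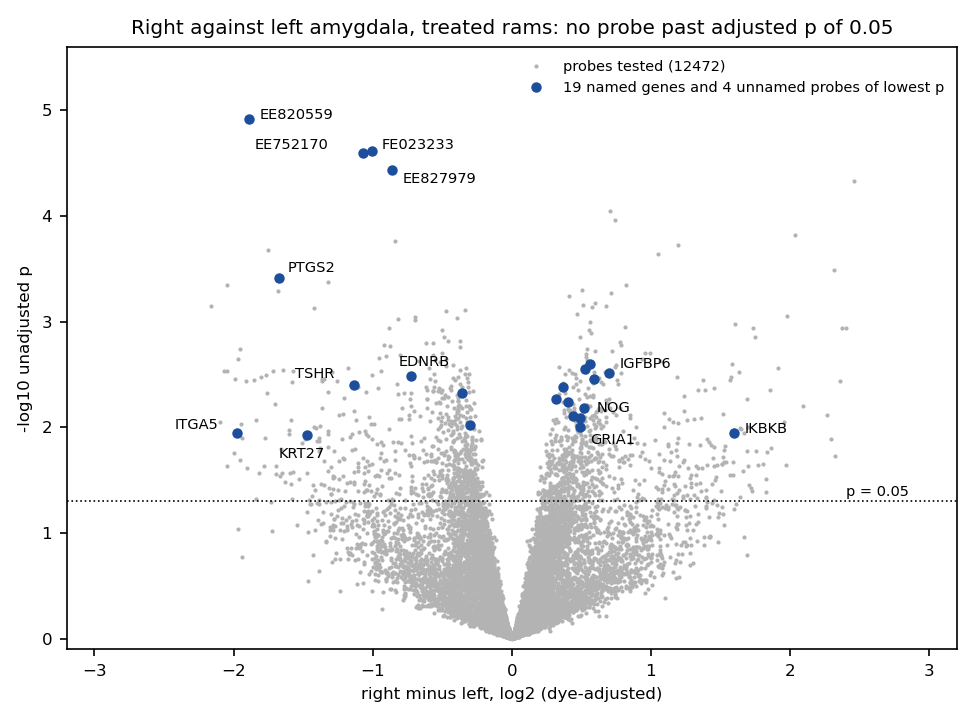
Right minus left difference in treated rams (x axis, log2, adjusted for dye) against -log10 of the unadjusted limma p (y axis), 1 grey point for each of 12472 probes; blue points mark 19 of the 20 named genes of lowest p and the 4 unnamed probes of lowest p. The dotted line marks the unadjusted threshold of 0.05; PTGS2 lies at -1.67 and EE820559 at -1.89 on the x axis.

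All values that follow are for the brightest probe of a gene, and none of the right minus left differences of single genes passed the adjusted threshold. Over all 679 named genes 53.9% were higher on the right. At an unadjusted p under 0.05 in limma, 7.22% were higher and 5.01% lower. Of the 20 named genes of lowest p, 13 were higher and 7 were lower on the right. Their limma adjusted p-values ran from 0.316 to 0.351. IKBKB, PER3, AQP1, ITGA4, ITGA5, LMNB1, MB, GNRH1, TGFB3, TLR4 and TNFSF13B had 4 or 5 values on at least 1 side, and the other named genes had 6 on each. Values of single sides are log2 ratios to the pool after the fitted dye effect was removed.

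Among genes with lower values on the right, the lowest p belonged to PTGS2, which encodes cyclooxygenase-2, the inducible enzyme of prostaglandin synthesis. Its values on the left ran from -0.39 to 0.85 with a median of 0.50, and on the right from -2.05 to -0.41 with a median of -1.36. The sides did not overlap, and the right was lower in 5 of 5 rams also before dye adjustment, by -1.83 in ram B, -0.89 in D, -2.29 in F, -1.13 in G and -0.999 in H. The fitted difference was -1.67 ± 0.42 (SE, n = 6 and 6; limma adjusted p = 0.316). A second, dimmer PTGS2 probe gave -0.91 ± 0.61.

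EDNRB, the endothelin B receptor, ran from -0.23 to 0.53 (median 0.10) on the left and from -1.33 to -0.01 (median -0.60) on the right. The sides overlapped, and the fitted difference was -0.73 ± 0.23. Its other probe, which was dimmer, gave -1.68 ± 0.44. TSHR, the receptor of thyrotropin, ran from -0.22 to 2.201 on the left and from -0.75 to 0.72 on the right, with overlap, and differed by -1.14 ± 0.37. Its mean log2 brightness was 5.35, in the dimmest bin, and its right value in ram F, 0.72, lay far above the other right values. DYNLT3, a light chain of the dynein motor that carries cargo along microtubules, had left values within -0.08 to 0.08 and right values of -0.60 to -0.03. The right was lower in 5 of 5 rams before and after dye adjustment, by -0.36 ± 0.12, and its other probe gave -0.38 ± 0.13.

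The remaining genes of this direction were dim or small in size. KRT27, a keratin of the hair follicle, differed by -1.47 ± 0.55, and ITGA5, the alpha subunit of the fibronectin receptor, by -1.97 ± 0.72 with 5 values a side. A probe that the files name MDD2 differed by -0.30 ± 0.11. In ITGA5 the 4 rams with both sides ranged from -5.42 to -0.41 before dye adjustment, so the spread between rams was wider than the fitted difference.

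Among genes with higher values on the right, YBX1 and IGFBP6 had sides that did not overlap. YBX1, a protein that binds RNA and regulates its translation, ran from -0.44 to 0.10 (median -0.20) on the left and from 0.16 to 0.54 (median 0.35) on the right. The right was higher in 5 of 5 rams before dye adjustment, by 0.40 to 0.82, and the fitted difference was 0.52 ± 0.16; its second probe gave 0.61 ± 0.19. IGFBP6, a secreted protein that binds insulin-like growth factor 2, ran from -0.38 to -0.03 on the left and from 0.11 to 0.98 on the right. The fitted difference was 0.70 ± 0.22, and a second probe gave 0.75 ± 0.23. Before dye adjustment ram B had the highest IGFBP6 difference, 1.59, and ram D the lowest, -0.23.

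EEF1A1, the factor that brings aminoacyl-tRNA to the ribosome, was higher on the right in 5 of 5 rams before dye adjustment, by 0.06 to 0.84. The fitted difference was 0.59 ± 0.19, and its 2 dimmer probes gave 0.38 ± 0.21 and 0.36 ± 0.22. GRIA1, a subunit of the AMPA receptor of fast glutamate transmission, ran from -0.63 to 0.34 on the left and from -0.02 to 0.83 on the right. It differed by 0.49 ± 0.18, with the same value of 0.49 ± 0.18 from its second probe. NOG, the secreted antagonist noggin of bone morphogenetic proteins, differed by 0.52 ± 0.18, but its second probe gave 0.03 ± 0.21.

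HYAL2, a hyaluronidase, differed by 0.44 ± 0.16, and PYGM, the muscle form of glycogen phosphorylase, by 0.49 ± 0.17. IKBKB, a kinase that activates NF-kB, had sides that did not overlap (-1.96 to -0.60 on the left, -0.46 to 1.45 on the right) and differed by 1.60 ± 0.59. Its probe had a mean log2 brightness of 5.34, and its other probe gave 0.38 ± 0.51. The remaining 5 of the 13 higher genes belonged to the list of ribosomal proteins, with which they are described.

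**Figure D2:**
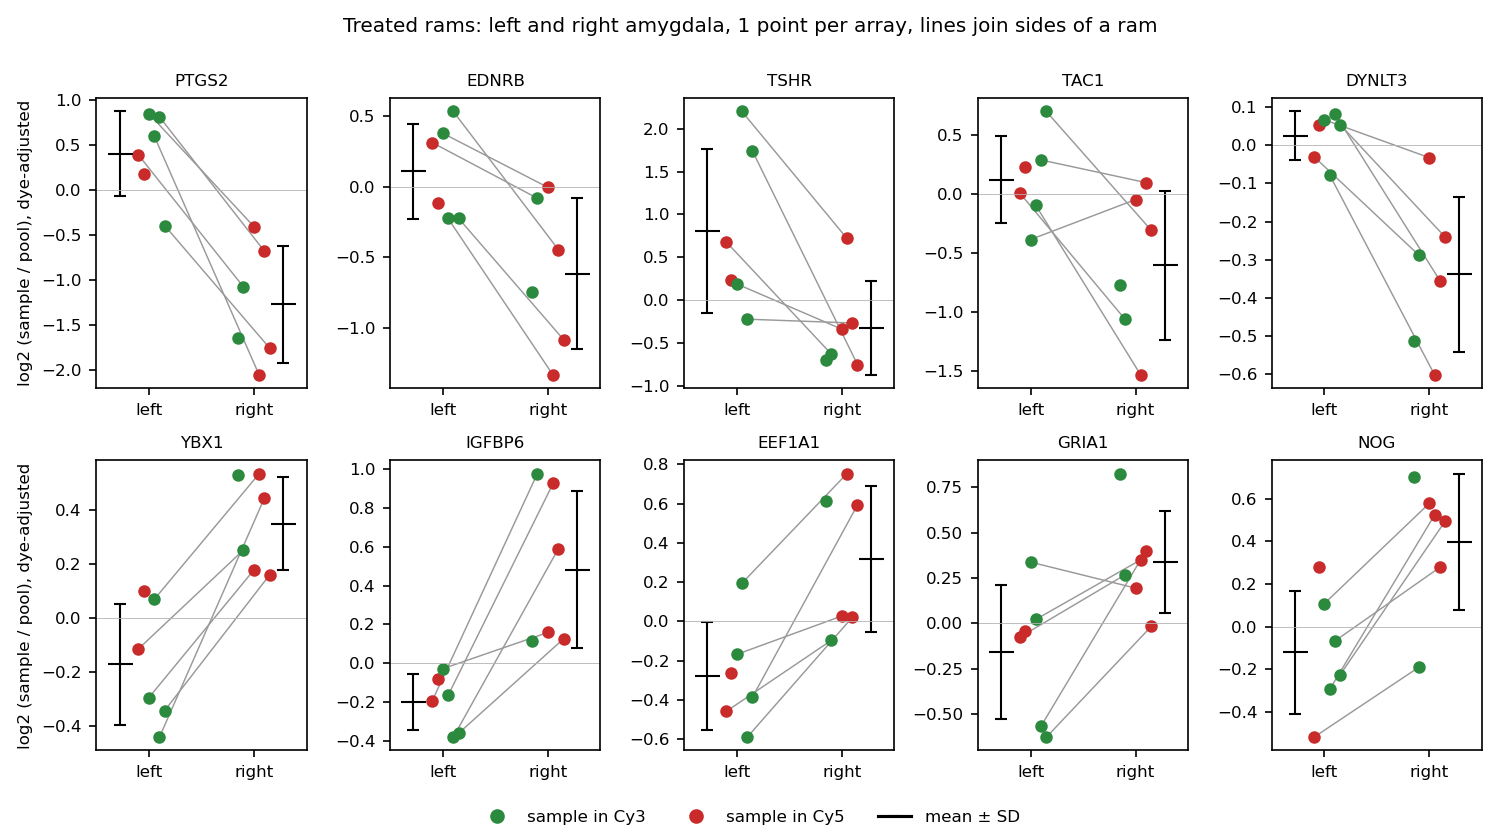
Log2 ratio of sample to pool after dye adjustment (y axis, its own scale in each panel) for 10 genes on the left and right side (x axis), 1 point for each array of treated rams, coloured by the dye of the sample, with grey lines joining the sides of a ram and black bars for mean ± SD (n = 6 a side). The sides of PTGS2, YBX1 and IGFBP6 do not overlap; those of EDNRB, TSHR, TAC1, DYNLT3, EEF1A1, GRIA1 and NOG do.

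Because dye and side were partly tied, the difference was also taken within each dye. Within Cy3 the right samples of rams A and B met the left samples of D, F, G and H, and within Cy5 the right samples of D, F, G and H met the left samples of B and C. All 20 genes had the same sign within both dyes, as had 55.4% of all 12381 probes with both values. The 20 were chosen by the fit that pools these arrays, so their shared sign is a description. PTGS2 differed by -1.83 ± 0.66 within Cy3 and by -1.48 ± 0.66 within Cy5. IGFBP6 differed by 0.79 ± 0.34 and 0.62 ± 0.34. HYAL2 lay near 0 within Cy3, at 0.08 ± 0.22, and at 0.71 ± 0.22 within Cy5. RPS6 was farther from 0 within Cy3, with 0.46 ± 0.15 within Cy3 and 0.11 ± 0.15 within Cy5. Within Cy3 and within Cy5 limma called 0 probes each, with 896 and 1210 probes at an unadjusted p under 0.05.

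**Figure D3:**
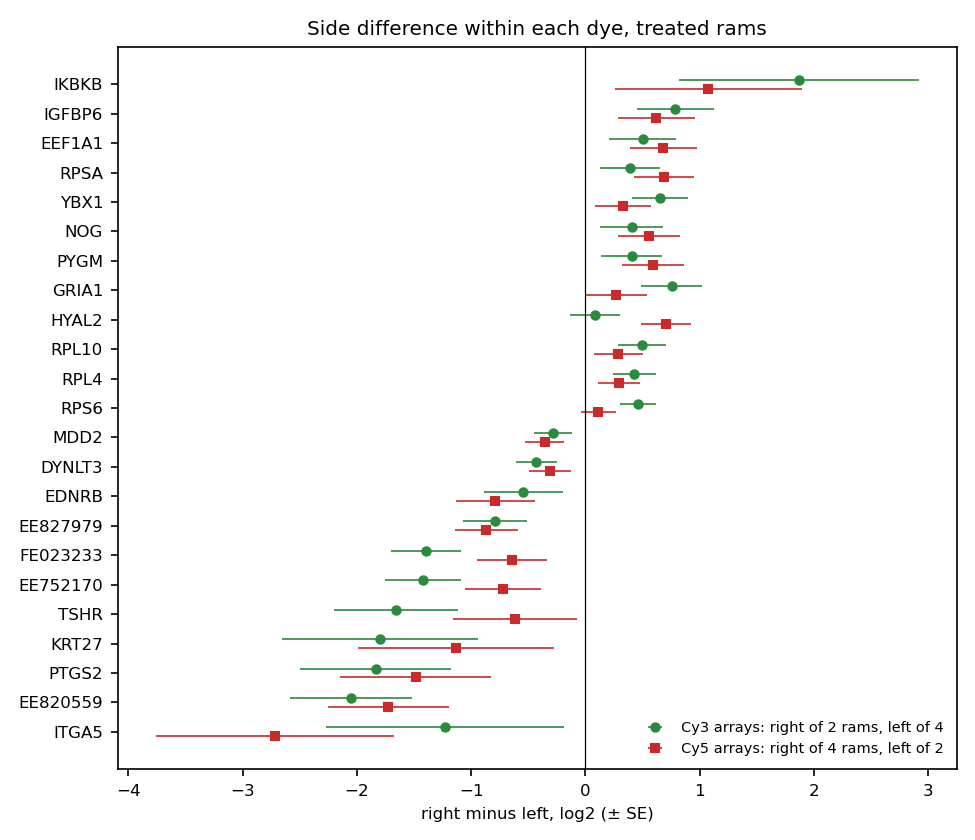
Right minus left difference ± SE (x axis, log2) for 19 of the 20 named genes and the 4 unnamed probes of lowest p (y axis), from Cy3 arrays (green circles) and Cy5 arrays (red squares) of treated rams. Each pair of points lies on the same side of 0; PTGS2 is at -1.83 and -1.48, and HYAL2 at 0.08 and 0.71.

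The ribosomal protein genes, which encode the protein part of the ribosome, had 18 tested members of 79 in the list. Of these, 13 were higher on the right, with a median difference of 0.20 beside 0.03 for all 679 named genes. At an unadjusted p under 0.05, 8 members were higher and 0 lower, where 5.64% and 5.87% of all probes were, and 0 passed the adjusted threshold. The members were bright, 16 of them in the brightest bin, where 7.38% of the probes were higher and 9.78% lower at that threshold. In the same fit, with its shared dye term, the list median was 0.08 in control rams, 0.24 in treated ewes and 0.17 in control ewes. There 13, 15 and 13 of the 18 members were higher on the right. In ewes the dye followed the side, so these fitted values rest on the dye term. Before dye adjustment the mean difference in treated ewes was -0.22 for RPSA, -0.22 for RPL4 and -0.19 for RPL10. For RPS6 it was 0.09 and for RPL6 0.47. In control ewes these genes stood at -0.33, -0.20, -0.32, -0.07 and 0.62, in that order. The list was chosen with earlier results of these data known. Several of these genes have near-identical copies in mammalian genomes, so a probe may read more than 1 of them.

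RPSA differed by 0.56 ± 0.17, RPL4 by 0.37 ± 0.12, RPS6 by 0.32 ± 0.11 and RPL10 by 0.40 ± 0.14. The most negative member was RPS25, at -0.18 ± 0.15, and the most positive was RPS15, at 1.26 ± 0.81; both were named after their values were seen. After dye adjustment the median of the 18 genes ran from -0.25 to -0.04 over the left arrays and from -0.04 to 0.16 over the right arrays.

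Before dye adjustment the median over the genes of the right minus left difference was 0.31 in ram B and -0.01, 0.02, 0.04 and 0.04 in rams D, F, G and H. The right array of ram A stood at 0.28 and the left array of ram C at -0.22. With rams D, F, G and H alone, which carried Cy3 on the left and Cy5 on the right, the list median was 0.035 and 1 member was higher at an unadjusted p under 0.05. Without ram A 5 members were higher at that threshold in place of 8, without the dye term 3, with animal as a fixed replicate block 2, and within Cy3 and within Cy5 arrays 3 and 2.

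**Figure D4:**
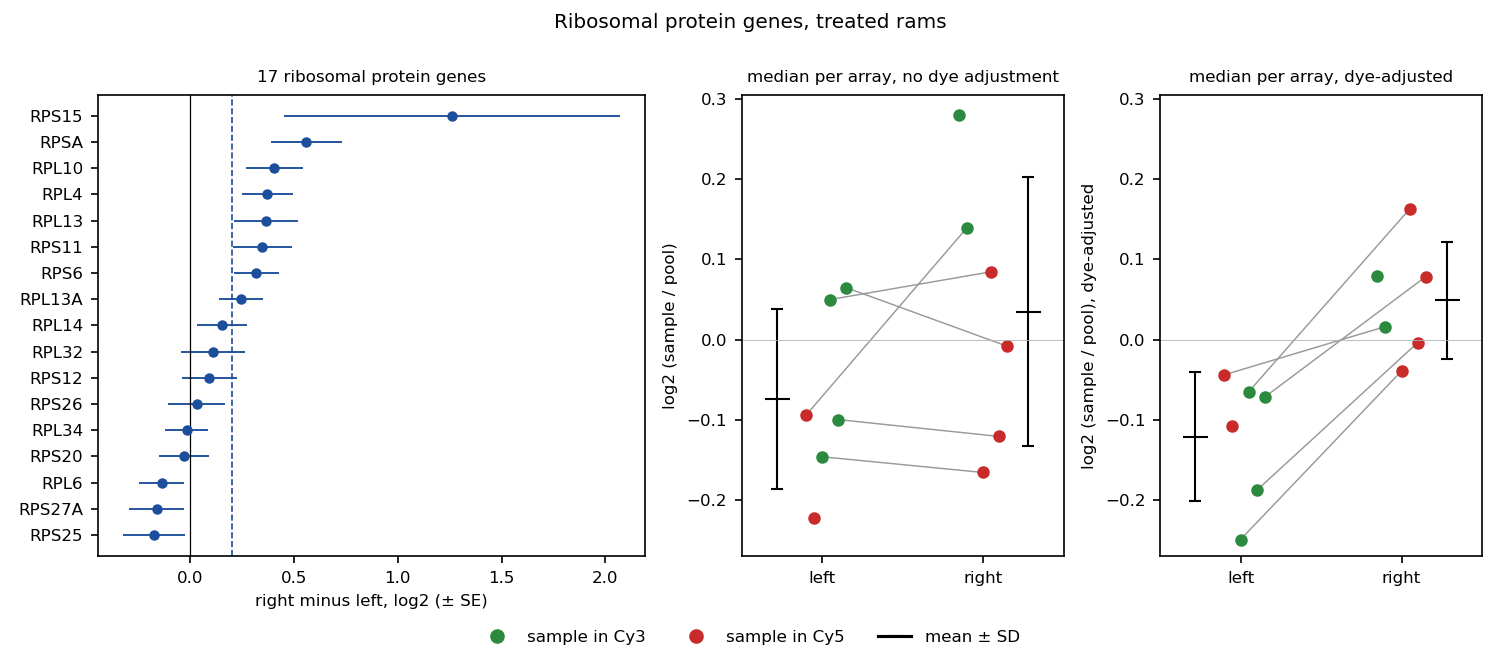
Left panel: right minus left difference ± SE (x axis, log2) for 17 of the 18 ribosomal protein genes tested, with the list median of 0.20 dashed. Middle and right panels: the median log2 ratio of these genes on each array of treated rams by side, without and with dye adjustment, coloured by dye, with lines joining the sides of a ram and bars for mean ± SD; without adjustment the left arrays lie between -0.22 and 0.06 and the right arrays between -0.17 and 0.28, and with it between -0.25 and -0.04 and between -0.04 and 0.16.

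The lowest p-values of all belonged to probes without a gene name, known by the accession of the transcript they were designed on. EE820559 ran from 0.13 to 2.21 on the left and from -1.62 to -0.19 on the right, without overlap. Before dye adjustment it was lower on the right in 5 of 5 rams, by -1.10 in ram B and by -4.31 to -2.03 in the others, and the fitted difference was -1.89 ± 0.35 (limma adjusted p = 0.106). FE023233 differed by -1.01 ± 0.21, EE752170 by -1.07 ± 0.22 and EE827979 by -0.86 ± 0.18. EE827979 was lower on the right in 5 of 5 rams before dye adjustment, while FE023233 and EE752170 were higher on the right in ram D.

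Genes of neural signalling were mixed. For this and the later lists, 7.22% of all named genes were higher and 5.01% lower at an unadjusted p under 0.05 in limma. Of 11 tested glutamate receptor and transport genes, 6 were higher on the right with a median difference of 0.11, and 1, GRIA1, had an unadjusted p under 0.05. GRM4, a metabotropic glutamate receptor, differed by -0.21 ± 0.12. Of 24 neuropeptide and receptor genes, 9 were higher and the median was -0.23. The 2 with an unadjusted p under 0.05 were both lower on the right, 8.33% of the list beside 5.01% of all named genes. TAC1, the precursor of substance P, differed by -0.72 ± 0.28, with -0.60 ± 0.29 from its second probe. ADCYAP1, the precursor of the peptide PACAP, differed by -1.69 ± 0.71 with right values of -2.38 to -0.38 and left values of -1.64 to 1.20; before dye adjustment ram B had -2.79 and ram H 1.20. Of 4 amine receptor and enzyme genes none had an unadjusted p under 0.05; the histamine receptor HRH2 differed by 0.13 ± 0.11 and the muscarinic receptor CHRM3 by -0.57 ± 0.55.

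Genes of the hormonal axis that the implant acts on had 13 tested members, 10 of them higher on the right, with a median of 0.14 and 0 at an unadjusted p under 0.05 in limma. ACVR2B, an activin receptor, differed by 0.25 ± 0.13. GNRH1, the GnRH precursor, differed by 1.09 ± 0.83 with 5 and 4 values. GNRHR, the receptor of GnRH and the target of the implant, differed by -0.37 ± 0.64 on a probe in the dimmest bin, and was named after its values were seen. Of 11 receptors and enzymes of sex steroids, 7 were higher, with a median of 0.13. CYP11B1, an enzyme of glucocorticoid synthesis, differed by -0.92 ± 0.38. Its probe was in the dimmest bin, with a mean log2 brightness of 5.32.

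In the growth hormone and insulin-like growth factor axis 9 of 13 genes were higher, with a median of 0.12, and the 2 with an unadjusted p under 0.05 were IGFBP6 and IGFBP5, at 0.51 ± 0.24. In transforming growth factor beta, bone morphogenetic protein and Wnt signalling 8 of 19 genes were higher and the median was -0.03. At an unadjusted p under 0.05, 4 were higher and 0 lower, where 7.22% and 5.01% of all named genes were. The 4 were NOG, the signal transducer SMAD5 (0.54 ± 0.23), the receptor TGFBR1 (0.76 ± 0.35) and BMP7 (1.04 ± 0.48, named after its value was seen). In the matrix and integrin list, 7 of 11 genes were higher, and ITGA4 differed by 1.45 ± 0.56 while its second probe gave 0.20 ± 0.50.

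Stress, clock and activity genes had few members. Of 8 heat shock and stress genes, 5 were higher. HSPA5, the chaperone of the endoplasmic reticulum, differed by 0.41 ± 0.18 and XBP1, a factor of the unfolded protein response, by 0.35 ± 0.17, and both had a second probe with a like value (0.46 ± 0.17 and 0.37 ± 0.15). Of 6 clock genes 1 was higher, with a median of -0.28. PER3 differed by -1.38 ± 0.53 with -0.15 ± 0.49 from its second probe, and BMAL1, which drives the clock with its partner CLOCK, by -0.26 ± 0.14. Among 6 immediate early genes, which mark recent neuronal activity, 3 were higher and 0 had an unadjusted p under 0.05 in limma; JUN differed by 0.20 ± 0.11 and JUND by 0.34 ± 0.21.

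None of the markers of other cells passed the adjusted threshold. Astrocyte genes were higher on the right in 6 of 7, with a median of 0.21; their array medians ran from -0.70 to 0.25 on the left and from -0.32 to 0.52 on the right. SLC1A2, the glutamate transporter of astrocytes, differed by 0.53 ± 0.25 and GFAP, their intermediate filament, by 0.47 ± 0.26. All 7 genes of choroid plexus, ependyma and meninges were higher on the right, with a median of 0.27 and 1 at an unadjusted p under 0.05. Their array medians ran from -0.98 to 0.16 on the left and from -0.44 to 0.71 on the right. AQP1, the water channel of choroid plexus, differed by 1.24 ± 0.50 on a probe in the dimmest bin, and DCN, the matrix proteoglycan decorin, by 0.68 ± 0.50. The part of these cells in the side differences of other genes was not tested.

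In the microglia list 7 of 12 genes were higher, with TLR4, a receptor of bacterial lipopolysaccharide, at 1.29 ± 0.56 and the integrin ITGB2 at 0.30 ± 0.25. In the list of endothelium and vessel wall 7 of 17 were higher, with the smooth muscle protein CNN1 at -0.51 ± 0.24 beside EDNRB. In the blood list 3 of 4 were higher, with the receptor EPOR at 0.71 ± 0.51 and ALB, serum albumin, at -0.41 ± 0.32. In the muscle list 3 of 8 were higher, with MB, myoglobin, at 1.31 ± 0.62 and -1.03 ± 0.54 from its second probe. Genes of antigen presentation were higher in 7 of 11, with B2M, the light chain of class I molecules, at 0.61 ± 0.27 and the interferon receptor IFNAR1 at -0.18 ± 0.13. Cytokine genes were higher in 6 of 21, with the B cell factor TNFSF13B at 1.28 ± 0.56 and TGFB3 at -1.03 ± 0.57.

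No gene of metabolism passed the adjusted threshold. Of 18 lipid genes 11 were higher, and the fatty acid desaturase SCD5 differed by -0.40 ± 0.16. CPT1B, which imports fatty acids into mitochondria, differed by -0.73 ± 0.42, with the left array of ram F at 4.43 far above the others, and its second probe gave 0.0069 ± 0.20. Of 18 glucose and glycogen genes 14 were higher, with a median of 0.09, and the brain form of glycogen phosphorylase, PYGB, differed by 0.35 ± 0.23. Of 5 sterol genes 2 were higher, with the efflux transporter ABCG2 at -0.27 ± 0.19. Of 8 channel and transporter genes 3 were higher, with a median of -0.05.

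The side difference of treated rams was next set against that of their untreated twins and other control rams. The fit had no term for the twin pair, so the pairing of twins was not used. In control rams, with 5 left and 4 right arrays, limma called 10 of 12191 probes for right against left (0.082%) and 10.4% at an unadjusted p under 0.05, with the left samples almost all in Cy3 and the right samples all in Cy5. The interaction of treatment and side, the difference of the differences, was called for 18 of 12191 probes (0.148%), and 10.2% of the probes had an unadjusted p under 0.05. The smallest limma adjusted p was 0.00318. With animal as a fixed replicate block 2 probes were called, without the dye term 0 (869 at an unadjusted p under 0.05), and without single arrays between 1 (without the left array of ram G) and 76 (without control right replicate 5).

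By the brightest probe of a gene, LMNB1 was the 1 named gene among the 18. LMNB1, lamin B1 of the nuclear envelope, differed between the sides by 1.36 ± 0.63 in treated rams with 5 left and 4 right values, and by -3.24 ± 0.79 in control rams. The interaction was 4.61 ± 0.93 (limma adjusted p = 0.0329), and with animal as a fixed replicate block 4.67 ± 1.23 (limma adjusted p = 0.198). Its other probe, of a like brightness, differed by 0.33 ± 0.40 in treated rams, with an interaction of 2.24 (limma adjusted p = 0.173). MB and ITGA5 came next, with interactions of 3.19 ± 0.86 and -3.82 ± 0.99 and limma adjusted p-values of 0.141 and 0.130. The second MB probe, of a like brightness, had the opposite sign, -1.73 (limma adjusted p = 0.460). The unnamed probe EE820559 was also called, with -1.89 ± 0.35 in treated rams, 1.29 ± 0.64 in control rams and an interaction of -3.18 ± 0.66 (limma adjusted p = 0.0415; 0.226 with the fixed replicate block). Values on both sides came from 1 control ram for EE820559, 0.54 before dye adjustment, and from 2 control rams for LMNB1. For PTGS2 the control rams had 0.06 ± 0.56, and the interaction of -1.73 ± 0.64 had a limma adjusted p of 0.301.

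The side difference of treated rams was also set against that of treated ewes, whose left arrays all carried Cy3 and right arrays all Cy5. Sex and the age at which treatment began differed together and cannot be told apart. In treated ewes alone 19 of 12341 probes were called for right against left (0.154%), with 17.2% at an unadjusted p under 0.05. In control ewes 97 of 12341 were called (0.786%), with 18.3% at that threshold. In ewes side and dye cannot be told apart within the group. The sex by side interaction was called for 667 of 12341 probes (5.4%), 339 higher and 328 lower in rams than in ewes, and 26.9% of the probes had an unadjusted p under 0.05. With animal as a fixed replicate block 2 probes were called, with 2946 at an unadjusted p under 0.05. Over arrays with Cy3 on the left and Cy5 on the right alone, without a dye term, 470 were called, of which 408 were among the 667. Without the dye term on all arrays 667 were called too, but they shared 379 with the first 667, and the 2 of the fixed block shared 1. Without single arrays the count ran from 172 (without the right array of ewe replicate 6) to 1176 (without the left array of ewe replicate 5).

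Among the 668 named genes tested, 22 were called, 14 with a higher and 8 with a lower right minus left difference in rams than in ewes. With animal as a fixed replicate block none of them was called: 21 could be fitted, each with the same sign, 20 had an unadjusted p under 0.05, and the limma adjusted p ran from 0.0618 to 0.268. Without the dye term 13 of the 22 were called. The 4 rams D, F, G and H and the 5 treated ewes with both sides shared the dye layout and their differences are given without dye adjustment, as a description of genes chosen by this interaction. For 13 of the 22 genes the ranges of these rams and ewes did not overlap. SLC7A5, a transporter of large neutral amino acids, ran from 0.91 to 2.31 in the rams and from -1.87 to 0.75 in the ewes, with an interaction of 2.33 ± 0.50 (limma adjusted p = 0.0137). In ram B, with the opposite dye layout, SLC7A5 differed by -0.06. Its fitted difference was 0.29 ± 0.33 in treated rams and -2.05 ± 0.45 in treated ewes. MIF, a cytokine with tautomerase activity, was among the brightest. It ran from -0.02 to 0.36 in the rams and from -1.28 to -0.57 in the ewes, with an interaction of 0.97 ± 0.21 (limma adjusted p = 0.0145). For MIF the fitted right minus left differences were 0.03 ± 0.14 in treated rams, 0.48 ± 0.19 in control rams, -0.94 ± 0.19 in treated ewes and -0.78 ± 0.19 in control ewes.

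TGFBR1, a receptor of transforming growth factor beta, ran from 0.85 to 2.06 in the rams and from -2.003 to -0.15 in the ewes, with an interaction of 2.39 ± 0.53. In ram B TGFBR1 differed by 0.35. Its second probe gave 2.82 for sex and, for treatment, 3.11 with a limma adjusted p of 0.0287. NOG, of the same signalling list, ran from 0.63 to 1.10 in the rams and from -0.27 to 0.15 in the ewes, with an interaction of 0.88 ± 0.27. In ram B NOG differed by 0.05, and its second probe gave an interaction of 0.63 (limma adjusted p = 0.204). ITGA5 had an interaction of -3.64 ± 0.84, DYNLT3 of -0.58 ± 0.18 and IFNAR1 of -0.64 ± 0.19. For each of these genes the ranges of rams and ewes overlapped. DYNLT3 ran from -0.58 to -0.16 in the rams and from -0.35 to 0.70 in the ewes. Second probes gave -0.63 for DYNLT3 and -0.38 for IFNAR1 (limma adjusted p = 0.052 and 0.139). The unnamed probe EE820559 had one of -3.11 ± 0.56. Of the others, named after their values were seen, ATP6V0C and ATP6V1B2 encode subunits of the proton pump that acidifies vesicles, with interactions of 1.07 ± 0.30 and 0.85 ± 0.24. GRM3, a metabotropic glutamate receptor, had 1.75 ± 0.52. The ribosomal protein gene RPL6 had -0.63 ± 0.16, with the rams at -0.36 to -0.07 and the ewes at 0.32 to 0.66. For ATP6V1B2 and GRM3 the ranges of rams and ewes overlapped. In ram B ATP6V0C differed by -0.40, ATP6V1B2 by -0.12, GRM3 by -0.82 and RPL6 by -0.12.

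**Figure D5:**
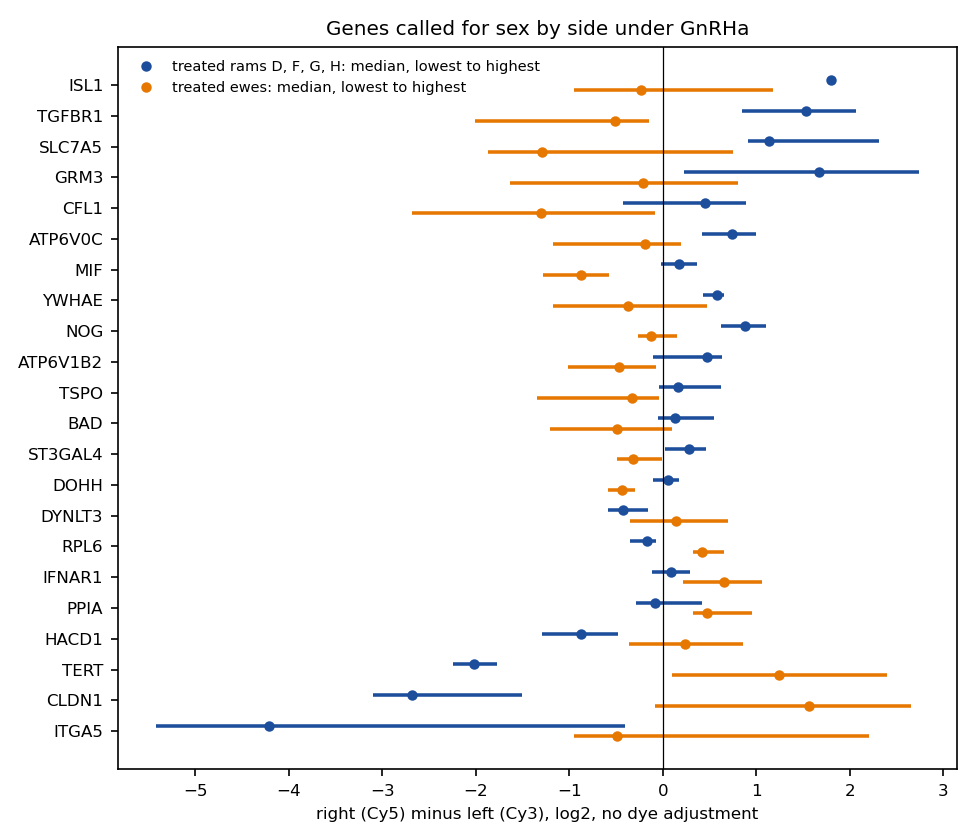
Right minus left difference without dye adjustment (x axis, log2) for the 22 named genes called for sex by side under GnRHa (y axis), with the median and the lowest to highest animal for treated rams D, F, G and H (blue) and treated ewes (orange), all with Cy3 on the left and Cy5 on the right. Dim genes such as ISL1 have fewer animals; the MIF differences lie between -0.02 and 0.36 in the rams and between -1.28 and -0.57 in the ewes.

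In the authors' deposited tables of treated males against the pool, 0 probes had an adjusted p under 0.05 on either side. Of the rows in the authors' deposited tables, 573 on the left and 742 on the right had an unadjusted p under 0.05. They hold no direct comparison of the sides.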

How the data were processed

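RNA of left and right amygdala was hybridised to 2-colour Agilent arrays, read with Agilent Feature Extraction 9.1, per the submitters' processing notes. The authors deposited log2 ratios of sample to pool for 56 arrays; background correction and normalization are not given in the sources used here, and depth does not apply to arrays, where their number limits the precision. The direction of each array was set by the sign of its spike-in slope alone. As a description, 2 probes had values that, after turning, did not overlap between treated rams and ewes. They took no part in the rule and do not tell which dye ram G carried. Over the 12 treated-ram arrays, of both dyes, 1 probe ran from 0.248 to 1.145 and the other from -1.794 to -0.774. Over ewe arrays the first ran from -5.661 to -2.598 (16 arrays) and the second from -0.2729 to 1.357 (20 arrays). The authors' deposited tables give log2 fold changes of each group against the pool with raw and adjusted p-values; their model is not given in the sources used here.

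Control spots were left out and spots averaged per probe, which left 15008 probes, 1398 of them named, for 798 genes (RefSeq assembly ARS-UI_Ramb_v3.0 for symbols). The spike-in rule kept 41 arrays of 25 animals and left out 15; 3 of the 41 were turned. A probe needed 4 values on each side of the treated rams, and 2 in each other group of an interaction. limma 3.58.1 in R 4.3.3 fitted a mean for each of 8 groups to the 41 arrays with dye as a fixed term and animal as a random block (within-animal correlation 0.149), two-sided, with Benjamini-Hochberg adjustment and a threshold of 0.05. The sides of a ram come from the same animal per the labels, which is the pairing; fits with animal as a fixed block were alternatives. The other groups carry little on dye, since their dye followed side, so dye was estimated mainly within the treated rams.

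Named were, by the brightest probe, the 20 genes of lowest p, the 2 members of lowest p of each of 24 lists with at least 3 tested members (28 lists, 4 with none), 3 genes of each interaction and 4 unnamed probes, 66 in all, of which 4 are not reported here. Members and lists were chosen with earlier results of these data known. The test was checked on simulated data. Tables were made with Python 3.11.15, pandas 2.3.3, numpy 2.4.6 and matplotlib 3.10.9.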

Additional observations from a re-analysis of the deposited data

Results flagged for a closer look

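In 124 groups of 4 to 6 arrays, 1 side of 1 named gene each, 5 values stood apart from the others by Dixon's test, 4.03% of the groups where chance gives about 5%. They were TSHR on the right in ram F (0.72), SMAD5 on the right in ram H (-0.55), IGFBP5 on the left in ram G (-0.92), CPT1B on the left in ram F (4.43) and HRH2 on the left in ram F (-0.41), all as dye-adjusted log2 ratios to the pool.

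The side difference differed between groups by a limma interaction test for 18 probes between treated and control rams and for 667 probes between treated rams and treated ewes. Of the 62 features reported by the naming rule, by the brightest probe of a gene, LMNB1 (4.61) and EE820559 (-3.18) were called between treated and control rams. Between treated rams and ewes 22 named genes were called. Those among the 62 were SLC7A5 (2.33), MIF (0.97), TGFBR1 (2.39), NOG (0.88), ITGA5 (-3.64), DYNLT3 (-0.58) and IFNAR1 (-0.64), and EE820559 (-3.11) was called too. Each value is the log2 difference of the differences.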

How the results depend on the processing

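Right against left in treated rams had 0 calls under the settings not listed here, and 4 probes without the dye term, 1 with animal as a fixed replicate block over all arrays, 2 with the labelled dye for turned arrays and 0 with a replicate block over the 5 rams with both sides (918 probes at an unadjusted p under 0.05 in limma). Leaving out 1 array or ram gave 0 to 4 calls: 4 without ram C, 3 without ram D, 1 without the right array of ram B and 2 without the right array of ram D. Rams D, F, G and H alone without a dye term, chosen after seeing the data, gave 667 calls for side and dye together. The fixed replicate block and the omission of single arrays for both interactions were also chosen after seeing the data. GnRHa by side moved from 18 calls to 0 without the dye term, 4 without a block, 2 with a fixed replicate block, 1 without turned arrays, 0 with all 56 columns (553 at an unadjusted p under 0.05 in limma) and 45 with array weights. Its range without single arrays was 1 to 76: control left replicate 2 (11) and 5 (6), control right 1 (8), 3 (4) and 5 (76), treated left 1 (5) and 6 (1), treated right 5 (7), 6 (7) and 7 (8) moved it by over 1.5 times. Sex by side moved from 667 to 200 without a block, 2 with a fixed replicate block, 162 without turned arrays, 0 with all 56 columns (1133 at an unadjusted p under 0.05 in limma) and 2238 with array weights. Its range was 172 to 1176: treated ram left 5 (429), 6 (258) and 7 (345), ram right 5 (284) and 7 (191), ewe left 4 (428), 5 (1176), 6 (208) and 7 (332), and ewe right 3 (1067), 6 (172) and 7 (367). The cause was not tested.

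Of the 62 features reported by name, 10 changed sign somewhere. MIF turned with treated-ram arrays alone (-0.0043), within Cy5 (-0.10), as the mean of both dyes (-0.0076), with array weights (-0.011), scaled (-0.042) and quantile normalized (-0.028), and ran from -0.015 to 0.14 without single arrays or rams. SLC7A5 turned within Cy5 (-0.31) and ran from -0.064 to 0.48. Within Cy3, GNRH1 (-0.29), ALB (0.16) and CHRM3 (0.0058) turned, and within Cy5 JUN (-0.024). With all 56 columns TGFBR1 (-0.18) and JUND (-0.023) turned. In rams D, F, G and H alone GFAP (-0.024) and IFNAR1 (0.086) turned, and IFNAR1 also turned with the fixed replicate block (0.00029). Over the right against left difference of treated rams the replicate block changed no call of a named gene; it was not run for the side differences of the other groups. Leaving out 1 array or ram moved 21 of the 62 by over 1.5 times: without ram A, ACVR2B (0.15), IGFBP5 (0.31), ITGB2 (0.20), PYGB (0.18) and IFNAR1 (-0.045); without ram B, TLR4 (2.07), ALB (-0.73), IFNAR1 (-0.31), DCN (0.43) and CNN1 (-0.81), and without its left array ABCG2 (-0.18), CHRM3 (-0.35) and JUN (0.30); without ram C, ITGA5 (-1.23), ALB (-0.26) and LMNB1 (2.09); without ram D, PER3 (-0.80); without ram F, DCN (0.41), and without its left array CPT1B (-0.13) and HRH2 (0.077); without ram H, JUND (0.22), and without its left array EPOR (0.32); MIF and SLC7A5 are given above. No spot can be called above background, since channel signals were not used here.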
